A study of Mus musculus with 5 samples.

Results

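The genes described here are 34 genes of DNA replication and S phase, fixed as a list of symbols and measured in single mouse bone marrow progenitor cells. All 34 were found by symbol among the 55450 genes of the deposited count matrices, and all 34 had enough UMIs to be tested between the sorted populations, among 19714 genes in all. They cover the loading of the replicative helicase, its activation, the polymerases and their clamp, nucleotide supply, protection and repair of the fork, and the packing of new DNA into chromatin. Most are standard marks of S phase in single-cell data, and their values describe how much RNA of the replication machinery the cells of each population held.

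Replication starts when Cdc6 helps to load the Mcm2 to Mcm7 helicase onto origins in G1. Geminin (Gmnn) blocks further loading once S phase has begun, and Cdc45, the GINS complex and cyclin E activate the loaded helicase. Most of these genes are targets of E2F transcription factors, so their RNA accumulates around the G1 to S transition and is lower in resting cells. Bone marrow progenitors include dividing and resting cells, and the most immature, stem cell-like ones are known to divide less often than committed myeloid precursors.

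Single-cell RNA was measured with droplet 3' libraries (10x Genomics), which count unique molecular identifiers (UMIs), 1 for each captured RNA molecule. The cells came from wild-type (WT) Balb/C mice aged 8 to 12 weeks, and bone marrow was enriched for c-Kit with magnetic beads and then sorted as lineage-negative c-Kit+ cells. Granulocyte-monocyte progenitors (GMP) were Sca-1- CD34+ with high CD16/32, and 3 libraries were deposited as replicates. Common myeloid progenitors (CMP) were Sca-1- CD34+ with low CD16/32, and lymphoid-primed multipotent progenitors (LMPP) were Sca-1+ CD34+ Flt3+, with 1 library each. Animals are not named for the GMP libraries, so p-values between populations measure the spread between these 3 libraries, which may be technical. For classes within GMP the library was a block. There p-values measure the spread left once differences between the 3 libraries are removed, which may also be technical.

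After filtering, 8429, 9016 and 7334 cells remained for GMP replicates 1, 2 and 3, 6880 for CMP and 7511 for LMPP, with median depths between 9226 and 15066 UMIs per cell. The gate genes followed the sort. Fcgr3, which encodes CD16, had 41.4, 35.8 and 46.4 CPM (counts scaled to the summed UMIs of the library) in the GMP libraries, against 10.1 CPM in CMP and 2.91 CPM in LMPP. Ly6a, which encodes Sca-1, had 0.807, 0.748 and 1.10 CPM in GMP, against 0.936 CPM in CMP and 17.4 CPM in LMPP. Flt3 had 4.76, 4.73 and 3.92 CPM in GMP, 48.0 CPM in CMP and 127 CPM in LMPP, whose gate selects on it. Kit and Cd34 were detected in all 5 libraries, at 38.3 to 48.1 CPM and 84.5 to 104 CPM in GMP, 61.9 and 266 CPM in CMP, and 145 and 328 CPM in LMPP. Granulo-monocytic markers summed to 31713 to 35656 CPM in GMP, 3756 CPM in CMP and 2682 CPM in LMPP, and stem cell markers to 25.2 to 33.9, 280 and 1118 CPM. Neutrophil markers, in contrast, summed to 397 to 465 CPM in GMP, 43.1 CPM in CMP and 2165 CPM in LMPP, and their part in the differences from LMPP was not tested. The same cell barcode occurred in a pair of libraries 221 times, with 13 to 33 for each pair. In GMP replicate 1, most monocyte-like and granulo-monocytic-like cells lay in clusters other than those that held these classes in replicates 2 and 3.

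The 34 genes lie on 16 mouse chromosomes (mm10, GENCODE M21). Rrm2 lies at chr12:24708241-24714146 on the plus strand and E2f8 at chr7:48866429-48881596 on the minus strand. Exons of 9 members overlap a gene on the other strand, Mcm7 overlaps the miRNA genes Mir25 and Mir93 on its own strand, and Pcna and Tyms have named pseudogenes, so part of their reads could be counted elsewhere.

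Promoter windows from 250 bases before to 50 after the start site (RefSeq, GRCm38.p6) were matched for 25 of the 34 genes. An E2F-type motif, taken as TTTCGCGC, TTTGGCGC, TTTCCCGC or TTTGCCGC on either strand, occurred in 12 of the 25 (48%), against 704 of 27025 genes with a window (2.6%). These 12 were Casp8ap2, Cdc6, Cdca7, Clspn, Dtl, Hells, Mcm3, Mcm5, Mcm6, Mcm7, Pola1 and Uhrf1. CCAAT occurred in 18 of the 25 windows (72%), against 41.1% of all genes, and the GC box GGGCGG also in 18 (72%), against 38.2%. TATAAA occurred in 8% of the members' windows and 15.7% of all. Stretches upstream of the start sites of 5 members are shown, 4 with the E2F-type motif, which the list's rule did not use, and that of Rrm2, which has no match. Capitals mark E2F-type matches in either orientation, and overlapping matches run together.
Mcm5, chr8:75109339-75109508, plus strand: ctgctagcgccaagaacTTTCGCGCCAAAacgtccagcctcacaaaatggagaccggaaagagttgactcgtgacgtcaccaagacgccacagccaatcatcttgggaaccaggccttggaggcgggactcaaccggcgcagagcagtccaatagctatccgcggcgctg
Mcm6, chr1:128359706-128359875, minus strand: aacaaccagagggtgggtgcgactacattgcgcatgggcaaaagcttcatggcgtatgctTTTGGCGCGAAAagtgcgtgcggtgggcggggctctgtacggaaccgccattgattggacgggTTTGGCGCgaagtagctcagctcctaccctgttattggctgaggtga
Pola1, chrX:93632156-93632325, minus strand: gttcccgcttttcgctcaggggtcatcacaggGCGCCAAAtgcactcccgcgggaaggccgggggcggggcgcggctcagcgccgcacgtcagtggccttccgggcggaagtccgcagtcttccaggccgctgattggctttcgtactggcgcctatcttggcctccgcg
Dtl, chr1:191575545-191575635, minus strand: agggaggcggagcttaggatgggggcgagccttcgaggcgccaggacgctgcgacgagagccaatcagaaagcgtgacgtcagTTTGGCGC
Rrm2, chr12:24708071-24708240, plus strand: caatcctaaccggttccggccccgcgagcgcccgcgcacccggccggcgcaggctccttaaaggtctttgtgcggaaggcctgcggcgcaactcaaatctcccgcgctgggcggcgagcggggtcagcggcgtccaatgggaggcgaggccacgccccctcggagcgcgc
The first match began 153 bases before the start site in Mcm5, 110 in Mcm6, 138 in Pola1 and 8 in Dtl. Mcm5 held 2 overlapping matches and Mcm6 held 3, while Rrm2, with the largest log2 difference of the members in GMP against CMP and against LMPP, held none of these letters in its window. A match is a description of the letters and not of binding.

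The summed RNA of the 34 genes took nearly the same share of UMIs in every library. It came to 2960, 3113 and 3160 CPM in GMP (mean 3078 ± 105, SD, n = 3), 3202 CPM in CMP and 3208 CPM in LMPP. The 43 mitosis and G2M genes summed to 2756, 3249 and 3062 CPM in GMP, 2807 CPM in CMP and 3851 CPM in LMPP. Behind the even sum of the members the genes differed, and the GMP libraries were above both other populations for some members and below both for others. In sums of this kind, fewer cells in S phase and less RNA per cell cannot be told apart.

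**Figure D1:**
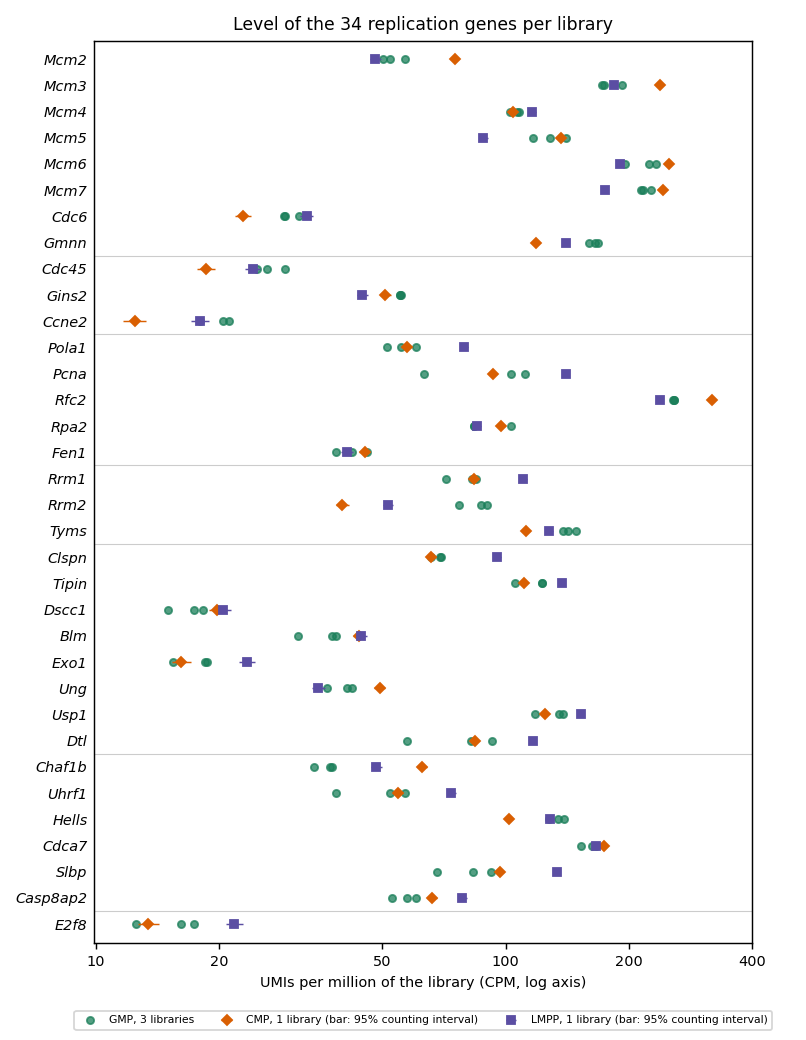
CPM on a log axis of each of the 34 genes in the 3 GMP libraries, the CMP library and the LMPP library, grouped by role, with 95% counting intervals as bars for the single CMP and LMPP libraries. Rrm2 sits at 76.7 to 89.9 CPM in GMP, above 40.0 CPM in CMP and 51.7 CPM in LMPP, while Chaf1b sits at 34.04 to 37.6 CPM in GMP, below 62.5 CPM in CMP and 48.3 CPM in LMPP.

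In GMP against CMP, 2 of 3 genes of nucleotide supply and all 3 of helicase activation rose with TMM scaling, against 1 and 2 of them with scaling by total UMIs. Rrm2, the small subunit of ribonucleotide reductase, which makes deoxynucleotides, had 76.7, 86.9 and 89.9 CPM in the GMP libraries (84.5 ± 6.89, SD, n = 3), against 40.0 CPM in CMP (95% counting interval 38.6 to 41.4). Every GMP library was above CMP, and with TMM, which sets each library's scale by the bulk of its genes, the log2 difference was 1.38 (SE 0.14, edgeR quasi-likelihood test, adjusted p = 0.000275). Ccne2, cyclin E2, had 20.4, 21.2 and 17.96 CPM in GMP, against 12.4 CPM in CMP, a log2 difference of 0.98 (SE 0.17, edgeR adjusted p = 0.00347). Cdc45, which joins the helicase when it fires, had 24.8, 26.2 and 28.9 CPM in GMP, against 18.6 CPM in CMP, a log2 difference of 0.82 (SE 0.14, edgeR adjusted p = 0.00363). Neither gene's groups overlapped.

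Geminin, the inhibitor of helicase loading, had 165, 168 and 159 CPM in GMP, against 118 CPM in CMP. Its log2 difference was 0.78 (SE 0.13, edgeR adjusted p = 0.00345). Hells, a chromatin remodeler needed for DNA methylation, had 128, 134 and 138 CPM in GMP, against 102 CPM in CMP, a log2 difference of 0.69 (SE 0.13, edgeR adjusted p = 0.0045). Cdc6, the helicase loader, had 28.9, 28.8 and 31.3 CPM in GMP, against 22.9 CPM in CMP, a log2 difference of 0.68 (SE 0.14, edgeR adjusted p = 0.00672). Tyms, thymidylate synthase, and Gins2, a GINS subunit, also rose, by log2 differences of 0.65 and 0.43. Chaf1b, a subunit of the factor that lays histones on new DNA, went the other way and fell to 37.6, 34.04 and 37.2 CPM in GMP, against 62.5 CPM in CMP, a log2 difference of -0.48 (SE 0.13, edgeR adjusted p = 0.0269).

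In all, 8 of the 34 members were higher and 1 was lower in GMP than in CMP at an adjusted p below 0.05, where 32.6% of the 19714 genes tested were called in either direction, 13.6% higher and 19.0% lower. By role, all 3 activation genes (Cdc45, Gins2 and Ccne2) and 2 of the 3 nucleotide genes passed, as did 2 of the 8 genes of the helicase and its loading, none of the 5 polymerase and clamp genes and none of the 8 fork protection and repair genes. The 25 members that did not pass included Rfc2, Mcm7, Mcm6 and Mcm3, at log2 differences of -0.01, 0.16, 0.10 and -0.10. The members' median log2 difference was 0.22, and that of all genes was -0.04.

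These calls depended on how the libraries were scaled. Scaled by total UMIs, all genes shifted down by a median of 0.30 on the log2 scale, and 5 members were higher and 3 lower, where 37.8% of genes were called, 7.43% higher and 30.4% lower. Rrm2 (1.08), Ccne2 (0.67), Cdc45 (0.52), Gmnn (0.47) and Hells (0.39) were higher and Chaf1b (-0.78) lower under both scalings. Cdc6 (0.37), Tyms (0.35) and Gins2 (0.12) passed with TMM scaling alone, and Mcm2 (-0.50) and Mcm3 (-0.41) were lower with total UMIs alone. The members' median lay 0.27 above the median of all genes, a distance that scaling hardly moves since it shifts all genes alike, and 31 of the 34 lay above the median of all genes. Spread was measured between the GMP libraries only (2 residual degrees of freedom), and CMP and LMPP were assumed to vary like them. Without GMP replicate 1, 14 members were higher and 1 lower, where 20.2% of genes were called higher and 23.2% lower.

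In GMP against LMPP, more members were called, and most with TMM scaling alone. Mcm5, a helicase subunit, had 140.5, 117 and 128 CPM in GMP, against 88.3 CPM in LMPP (95% counting interval 86.2 to 90.3). The groups did not overlap, and the log2 difference was 1.16 (SE 0.17, edgeR adjusted p = 0.000684). Mcm7, of the same ring, had 226, 216 and 214 CPM in GMP, against 175 CPM in LMPP, a log2 difference of 0.94 (SE 0.14, edgeR adjusted p = 0.000856). Rrm2 was again higher, with the GMP values given above against 51.7 CPM in LMPP (counting interval 50.1 to 53.2), a log2 difference of 1.32 (SE 0.14, edgeR adjusted p = 0.000161). These 3 genes also passed with total UMIs, at log2 differences of 0.54, 0.32 and 0.71 for Mcm5, Mcm7 and Rrm2.

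Gins2 had 55.3, 55.2 and 55.5 CPM in GMP, against 44.7 CPM in LMPP, a log2 difference of 0.92 (SE 0.13, edgeR adjusted p = 0.000657). Geminin's log2 difference was 0.84 (SE 0.13, edgeR adjusted p = 0.00116), with 140.4 CPM in LMPP. Ung, which removes uracil from DNA, had 41.1, 36.7 and 42.3 CPM in GMP, against 34.9 CPM in LMPP, a log2 difference of 0.81 (SE 0.15, edgeR adjusted p = 0.00226). With total UMIs these 3 did not pass, at log2 differences of 0.31 for Gins2, 0.22 for Gmnn and 0.20 for Ung.

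With TMM scaling 21 of the 34 members were higher in GMP than in LMPP and none was lower, where 57.6% of genes were called, 26.0% higher and 31.6% lower. All 8 genes of the helicase and its loading and all 3 activation genes passed, as did 3 of the 5 polymerase and clamp genes (Fen1, Rfc2 and Rpa2), 2 of the 3 nucleotide genes (Rrm2 and Tyms), 3 of the 8 fork and repair genes (Tipin, Ung and Usp1) and 2 of the 6 chromatin genes (Hells and Cdca7). Only 12 of these 21 had all GMP libraries above LMPP in CPM, while 5 had all of them below it and 4 had them on both sides. Scaled by total UMIs, which shifted all genes down by a median of 0.62, 3 members were higher and 7 lower, where 63.2% of genes were called, 11.0% higher and 52.1% lower. The 7 were Slbp (-0.71), Uhrf1 (-0.58), Pola1 (-0.50), Clspn (-0.49), Rrm1 (-0.47), Casp8ap2 (-0.46) and Chaf1b (-0.41), none of which passed with TMM scaling, and Rrm1 changed sign from 0.15. The members' median lay 0.62 above that of all genes, and 33 of 34 members lay above the median of all genes.

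Members that did not pass against LMPP included the sliding clamp Pcna, at 63.3, 103 and 111 CPM in GMP, against 140.4 CPM in LMPP, with a TMM-scaled log2 difference of 0.01. The GMP libraries spread widely here (92.5 ± 25.6, SD, n = 3), as they did for Dtl, a ubiquitin ligase adaptor of S phase, at 57.4, 82.4 and 92.4 CPM, against 116 CPM in LMPP. In both genes GMP replicate 1 was the lowest. Slbp, which binds the stem-loop of histone mRNAs, had 67.9, 83.1 and 92.3 CPM in GMP, against 133 CPM in LMPP. At the other end of the spread, Rfc2, a clamp loader subunit, had 256, 257 and 258 CPM in the GMP libraries. The comparisons with CMP and with LMPP share the GMP libraries and are not independent.

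**Figure D2:**
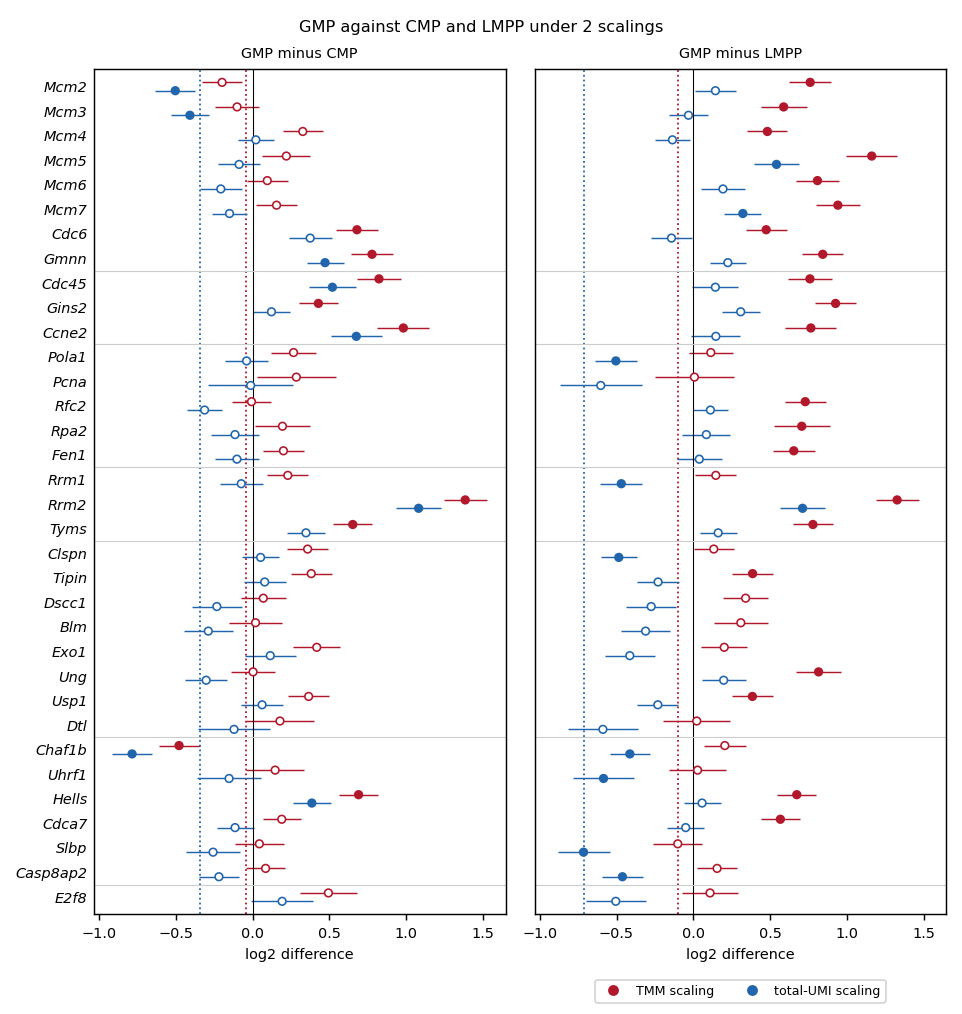
Log2 differences of the 34 genes in GMP minus CMP and in GMP minus LMPP, with TMM scaling and with scaling by total UMIs; bars are SEs, filled points have an edgeR adjusted p below 0.05 and dotted lines are the medians of all genes. Rrm2 stands at 1.38 against CMP and 1.32 against LMPP with TMM scaling, and the scaling by total UMIs moves all points down by about the shift of the median of all genes, 0.30 and 0.62.

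CMP and LMPP, with 1 library each, were set side by side without a test, and a gene was called at 1.5-fold or more with counting intervals apart. Mcm2, a helicase subunit, had 75.2 CPM in CMP, against 48.0 CPM in LMPP, and Mcm5 had 136 CPM in CMP, against 88.3 CPM in LMPP, 1.56 and 1.55 times as much. Pcna had 93.3 CPM in CMP, against 140.4 CPM in LMPP, and E2f8, an atypical E2F that represses E2F targets, had 13.4 CPM in CMP, against 21.8 CPM in LMPP, ratios of 0.66 and 0.62. These 4 of 34 members compare with 36.6% of all genes called, 6.22% higher and 30.4% lower. The intervals cover counting error only.

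The level of a gene in a population says little of how it is spread over cells, so cells were thinned to 5000 UMIs each and the members with at least 1 UMI were counted. At least 10 of the 34 were detected in 57.6%, 65.1% and 66.3% of cells of GMP replicates 1, 2 and 3 (63.0% ± 4.70, SD, n = 3), against 47.4% in CMP (95% Clopper-Pearson interval 46.1 to 48.6) and 48.5% in LMPP (47.3 to 49.8). The median cell held 10, 11 and 11 members in GMP and 9 in CMP and in LMPP. Cells below 5000 UMIs were left out, 906, 542 and 341 in GMP, 807 in CMP and 1067 in LMPP. No cell class known to lack these RNAs was sorted, so the share that free RNA in the droplets gives was not measured.

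Cells of CMP and LMPP were spread over a wider range than those of GMP. The share with 4 members or fewer was 4.45%, 2.44% and 2.97% in GMP, 15.9% in CMP and 17.6% in LMPP. The share with 18 or more was 3.60%, 4.46% and 4.96% in GMP, 8.22% in CMP and 10.6% in LMPP. Both ends held more cells in CMP and LMPP than in any GMP library, and these limits were chosen after the distributions were seen. Quartiles were 8 to 13, 8 to 14 and 9 to 14 members in GMP, 6 to 13 in CMP and 5 to 14 in LMPP. At a thinning to 2000 UMIs the order at a minimum of 10 members was turned round, at 6.17% ± 0.80 in GMP, 8.32% in CMP and 9.01% in LMPP. Unthinned, the shares were 89.4% ± 5.44 in GMP, 64.5% in CMP and 61.6% in LMPP, at the different depths of the libraries.

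**Figure D3:**
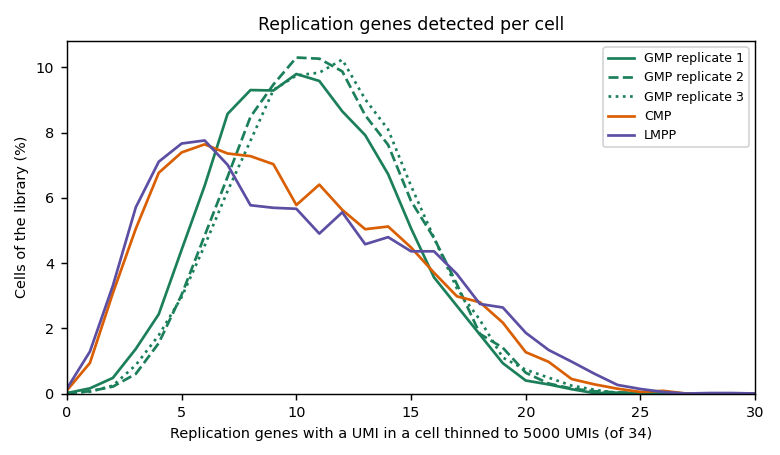
Percent of cells (vertical axis) by the number of the 34 genes detected per cell (horizontal axis) after thinning to 5000 UMIs, 1 line per library. The GMP lines peak near their medians of 10 and 11, while CMP and LMPP, with medians of 9, have more cells with 4 or fewer (15.9% and 17.6%) and with 18 or more (8.22% and 10.6%).

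Shares of cells were also taken for single members. Rrm2 was detected in 29.5%, 31.9% and 32.6% of thinned GMP cells, against 12.2% of CMP cells (11.4 to 13.02) and 14.6% of LMPP cells (13.8 to 15.5). Unthinned, Rrm2 was detected in 47.9%, 57.4% and 62.7% of GMP cells, 21.7% of CMP cells and 23.9% of LMPP cells. Mcm5 was detected in 44.7%, 40.9% and 45.0% of thinned GMP cells, 39.3% of CMP cells and 28.0% of LMPP cells, and Chaf1b in 16.3%, 15.8% and 17.2%, 24.5% and 19.2%. Rrm2 and Mcm5 were therefore found in more GMP cells than cells of either other population, and Chaf1b in fewer. Over all 34, every GMP library was above CMP for 20 members and below it for 5, and above LMPP for 18 and below it for 11, with the GMP libraries on both sides for the rest. By CPM the counts were 8 above and 12 below CMP, and 12 above and 18 below LMPP, so shares and levels did not give the same order. Mcm7, for example, was detected in 63.8%, 63.5% and 63.0% of thinned GMP cells, against 59.9% of CMP cells, but had 226, 216 and 214 CPM in GMP, against 242.5 CPM in CMP. Counts of members with every GMP library above or below were not taken over all genes, here or elsewhere, and describe the members alone. The edgeR calls on summed UMIs are another measure and not a baseline for these counts. With total UMIs, they put 7.43% of all genes higher and 30.4% lower in GMP than in CMP. Against LMPP these shares were 11% and 52.1%.

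Within a library, the members moved together from cell to cell, more so in CMP and LMPP. For each gene, thinned cells were ranked by the summed UMIs of the other 33 members, and its mean in the highest 25% of cells was divided by that in the lowest 25%. The median ratio over the 34 genes was 2.24, 1.93 and 2.04 in the GMP libraries, 4.93 in CMP and 5.20 in LMPP. Ccne2 had ratios of 4.33, 4.62 and 4.75 in GMP, 22.0 in CMP and 23.1 in LMPP. Rrm2 had 2.42, 2.07 and 2.30 in GMP, 16.3 in CMP and 14.96 in LMPP. Both genes thus differed more between cells rich and poor in the other members in CMP and LMPP than in any GMP library. Rfc2 had the smallest ratios in CMP and LMPP, 1.96 and 1.98, against 1.72, 1.48 and 1.51 in GMP.

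The relation of the members to genes of the next cycle phase had opposite signs in GMP and in the other populations. Across cells, Spearman's correlation between the summed members and 43 mitosis and G2M genes was -0.217, -0.271 and -0.223 in the GMP libraries (6993 to 8474 cells), 0.199 in CMP (6073 cells) and 0.325 in LMPP (6444 cells). Cells of a library share its depth and composition, and the original depth of the cells was not alike for these sums. The same correlation between the members and total UMIs before thinning was 0.123, 0.021 and 0.060 in GMP, 0.466 in CMP and 0.406 in LMPP, and its part in the difference was not tested.

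In the 25% of cells highest for G2M genes, the members' mean over that in the other cells had a median of 0.72, 0.70 and 0.72 in GMP, 1.27 in CMP and 1.26 in LMPP. In GMP 29, 31 and 30 of the 34 members had ratios below 1, whereas 24 in CMP and 26 in LMPP were above 1. The ratios were not taken over all genes, so these counts describe the members alone. Spearman's correlation of the G2M sum with total UMIs before thinning was 0.334, 0.402 and 0.464 in GMP, 0.434 in CMP and 0.464 in LMPP. Its part in the ratios was not tested. Ung had the lowest ratio in all 5 libraries, 0.16, 0.19 and 0.21 in GMP, 0.33 in CMP and 0.25 in LMPP. Cyclin E2 was low in the G2M-high cells of GMP, at 0.23, 0.24 and 0.32, against 1.44 in CMP and 1.36 in LMPP. Mcm4, a helicase subunit, stayed below 1 throughout, at 0.51, 0.51 and 0.53 in GMP, 0.67 in CMP and 0.79 in LMPP.

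A few members had ratios above 1 in every library. Rrm1, the large subunit of ribonucleotide reductase, had 1.32, 1.14 and 1.21 in GMP, 1.99 in CMP and 2.20 in LMPP. E2f8 had 1.10, 1.24 and 1.23 in GMP, 2.93 in CMP and 3.84 in LMPP. Blm, a helicase that resolves recombination intermediates, had 1.15, 1.12 and 1.15 in GMP, 1.60 in CMP and 2.05 in LMPP. Rrm2, by contrast, stood at 0.85, 0.71 and 0.82 in GMP, 2.88 in CMP and 2.88 in LMPP.

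**Figure D4:**
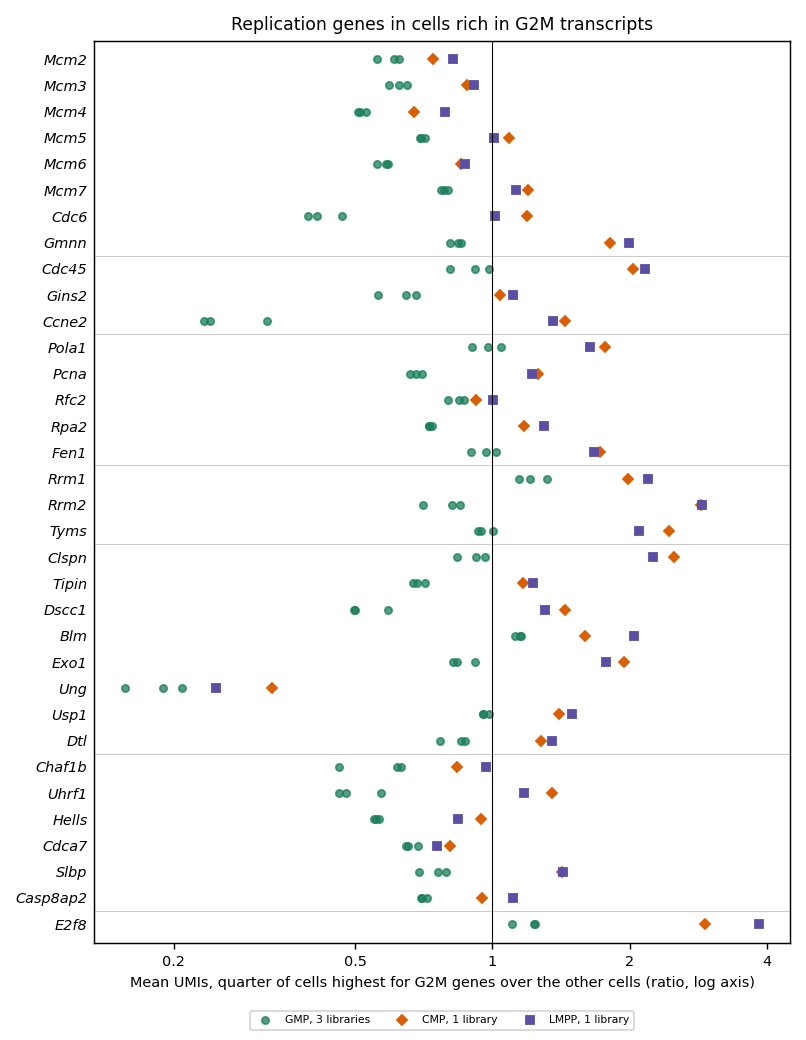
Ratio of each member's mean UMIs in the 25% of thinned cells highest for 43 G2M genes over that in the other cells, for the 5 libraries on a log axis. GMP libraries lie mostly below 1 (medians 0.72, 0.70 and 0.72) and CMP and LMPP mostly above it (1.27 and 1.26), with Ung lowest in all 5.

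Within GMP, cells were clustered without the members and other cell cycle genes, and clusters were named after markers of blood lineages. The classes were monocyte-like (3356, 3112 and 2871 cells in replicates 1, 2 and 3), neutrophil-like (686, 769 and 739), eosinophil-like (136, 165 and 120), basophil and mast cell-like (553, 712 and 366) and granulo-monocytic-like (2219, 2270 and 1877). Each was compared with the granulo-monocytic-like class of the same libraries, and the neutrophil-like class was added after the clusters were seen. The 4 comparisons share the granulo-monocytic-like sums. The members summed to 3253 ± 157 CPM in monocyte-like, 2626 ± 148 in neutrophil-like, 3341 ± 72.4 in eosinophil-like, 2853 ± 25.7 in basophil and mast cell-like and 2851 ± 68.5 CPM in granulo-monocytic-like cells (SD, n = 3).

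In monocyte-like cells 27 of the 34 members rose, by log2 differences of 0.50 at most. E2f8 had 13.1, 18.4 and 18.3 CPM in monocyte-like cells of replicates 1, 2 and 3, against 8.22, 13.7 and 12.7 CPM in granulo-monocytic-like cells, a log2 difference of 0.50 (SE 0.06, edgeR adjusted p = 1.41e-09). Ccne2 had 24.4, 25.2 and 21.4 CPM, against 18.4, 19.2 and 14.3 CPM, a log2 difference of 0.43 (SE 0.05, edgeR adjusted p = 2.74e-09). Clspn, claspin, which passes the replication checkpoint signal to Chk1, had 79.7, 77.4 and 72.7 CPM, against 57.0, 61.3 and 57.2 CPM, a log2 difference of 0.36 (SE 0.04, edgeR adjusted p = 6.09e-11). For each of these the monocyte-like value was higher in 3 of 3 libraries. Cdc45 (0.37), Mcm5 (0.32) and Slbp (0.30) followed.

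Of the 34 members 27 were higher in monocyte-like cells and none was lower, where 41.3% of 13345 genes were called, 20.7% higher and 20.6% lower. All 8 fork and repair genes and all 3 activation genes passed, with 5 of 8 of the helicase and its loading. The 7 that did not pass included Rfc2 (0.09), Mcm6 (0.06), Gmnn (0.08) and Mcm4 (0.03). The members' median was 0.16, that of all genes was -0.0013, and all 34 lay above it. Median depth was alike, at 11235 to 15700 UMIs in monocyte-like and 11662 to 16015 UMIs in granulo-monocytic-like cells. G2M genes summed to 3083 ± 199 CPM in monocyte-like and 2804 ± 348 CPM in granulo-monocytic-like cells, and their part in the result was not tested. With total UMIs 30 members were higher and none lower, the 27 among them, where 41.4% of genes were called, 24% higher and 17.4% lower. Without the library block, which removes differences between the 3 GMP libraries, 3 members passed, where 12.6% of genes did.

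Neutrophil-like cells split the list. Rrm2 had 102, 106 and 112 CPM in neutrophil-like cells, against 80.5, 96.1 and 86.2 CPM in granulo-monocytic-like cells, a log2 difference of 0.46 (SE 0.05, edgeR adjusted p = 1.32e-11). Geminin (0.29), Clspn (0.29) and E2f8 (0.25) were also higher with TMM scaling. The helicase subunits Mcm3 (-0.19), Mcm6 (-0.16), Mcm2 (-0.16) and Mcm5 (-0.16), with Chaf1b (-0.24) and Ung (-0.17), were lower, Mcm5 at 97.3, 77.7 and 91.5 CPM in neutrophil-like cells, against 126, 101 and 109 CPM in granulo-monocytic-like cells. Together 10 members were higher and 6 lower, where 24.6% of genes were called, 15.2% higher and 9.38% lower. The members' median was 0.05 and that of all genes -0.01. With total UMIs 2 were higher, Rrm2 and Gmnn, and 18 lower, where 37.9% of genes were called, 5.1% higher and 32.8% lower, and the median of all genes was -0.18. Without the library block 1 member passed, where 2.47% of genes did.

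With TMM scaling, eosinophil-like cells, of median depth 5152, 4825 and 3474 UMIs, had a few members higher and more lower. With total UMIs more were higher than lower, as given below. Pcna had 109, 158 and 201 CPM in eosinophil-like cells, against 57.9, 97.3 and 99.8 CPM in granulo-monocytic-like cells, a log2 difference of 0.42 (SE 0.08, edgeR adjusted p = 2.45e-05). Mcm5 had 218, 192 and 198 CPM, against 126, 101 and 109 CPM, a log2 difference of 0.41 (SE 0.07, edgeR adjusted p = 7.87e-06). Mcm2 (0.36) and Rrm1 (0.31) were the other 2 that rose. In all 4 genes the eosinophil-like class was higher under both scalings.

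Among the members that fell in eosinophil-like cells, Gins2 had 40.3, 30.5 and 40.1 CPM, against 53.7, 51.2 and 50.9 CPM in granulo-monocytic-like cells, a log2 difference of -0.95 (SE 0.14, edgeR adjusted p = 1.87e-07). Geminin had 138, 131 and 106 CPM, against 164, 171 and 154 CPM, a log2 difference of -0.81 (SE 0.08, edgeR adjusted p = 7.38e-12). Ccne2 (-0.95), Dscc1 (-0.79), a subunit of an alternative clamp loader, Tipin (-0.76), which protects stalled forks, and Rrm2 (-0.73) also fell. In all, 4 members were higher and 17 lower, where 37.6% of genes were called, 17.6% higher and 20% lower. The members' median was -0.25 and that of all genes 0.04. Those that did not pass included Mcm7 (-0.02), Mcm3 (0.17), Rpa2 (-0.13) and Slbp (0.21). With total UMIs, which raised all genes by a median of 0.45, 14 members were higher and 5 lower, where 46.2% of genes were called, 38.5% higher and 7.69% lower. The 5 were Tyms, Rrm2, Gins2, Gmnn and Tipin, which were lower under both scalings.

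With TMM scaling, basophil and mast cell-like cells had 3 members far above the granulo-monocytic-like class and nearly all others below it. The summed members were alike in CPM, at 2853 and 2851 CPM, and the clusters joined in the class differed, as given below. E2f8 had 28.7, 38.2 and 31.7 CPM in basophil and mast cell-like cells, against 8.22, 13.7 and 12.7 CPM in granulo-monocytic-like cells, a log2 difference of 1.29 (SE 0.10, edgeR adjusted p = 1.91e-16). Blm had 72.5, 75.9 and 66.1 CPM, against 33.8, 31.8 and 27.5 CPM, a log2 difference of 0.97 (SE 0.07, edgeR adjusted p = 5.6e-17). Rfc2 had 464, 403 and 413.5 CPM, against 234, 227 and 238 CPM, a log2 difference of 0.64 (SE 0.05, edgeR adjusted p = 3.64e-17). For these 3 the classes did not overlap, and they were higher under both scalings.

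Rrm2 fell to 33.4, 43.2 and 46.7 CPM in basophil and mast cell-like cells, against 80.5, 96.1 and 86.2 CPM in granulo-monocytic-like cells, a log2 difference of -1.33 (SE 0.07, edgeR adjusted p = 5.95e-22). Hells had 87.3, 86.6 and 99.3 CPM, against 122, 125 and 128 CPM, a log2 difference of -0.71. Gmnn (-0.71), Cdca7 (-0.68), which recruits Hells, Gins2 (-0.65) and Tipin (-0.62) also fell. Counted together, 3 members were higher and 28 lower, where 59.4% of genes were called, 31.3% higher and 28.1% lower. The members' median was -0.29 and that of all genes 0.03, and Pola1 (0.04), Mcm2 (-0.04) and Dscc1 (-0.22) did not pass. Of the 31 that passed, 6 had all libraries higher in CPM, 14 had all lower and 11 had them on both sides. With total UMIs 5 members were higher and 12 lower, where 60.2% of genes were called, 43.4% higher and 16.7% lower, and the shift of all genes was 0.23.

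The class joins clusters that differed in depth and in leading genes. Cluster 15, led by Gzmb, Cma1 and Cpa3, held 270, 287 and 207 GMP cells with median depths of 3495 to 4291 UMIs, and cluster 16, led by Prss34, Mcpt8 and Ms4a2, held 274, 412 and 152 cells with 6551 to 8623 UMIs. The members summed to 2190 ± 56.6 CPM in cluster 15 and 3198 ± 62.4 CPM in cluster 16 (SD, n = 3). Set against granulo-monocytic-like cells alone, cluster 15 had 2 members higher and 31 lower, with a median of -1.09, where 28.0% of genes were called higher and 30.1% lower. Cluster 16 had 7 higher and 8 lower, with a median of -0.04, where 22.2% were called higher and 21.1% lower. The splits by cluster were chosen after the clusters were seen, and the difference between the clusters was not tested.

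Blm and Rfc2 were high in both clusters, and E2f8 in 1 of them. E2f8 had 39.1, 46.0 and 43.3 CPM in cluster 16, a log2 difference of 1.72 against granulo-monocytic-like cells, and 11.0, 19.0 and 15.2 CPM in cluster 15, a difference of -0.028. Blm had 57.1, 61.0 and 54.5 CPM in cluster 16 and 104.0, 121.6 and 88.9 CPM in cluster 15, with log2 differences of 0.73 and 1.34 against granulo-monocytic-like cells. Rfc2 differed by 0.58 in cluster 16 and 0.71 in cluster 15. Rrm2 was low in both, at 40.6, 48.5 and 67.1 CPM in cluster 16 and 17.5, 19.8 and 15.2 CPM in cluster 15, with log2 differences of -0.98 and -2.74.

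**Figure D5:**
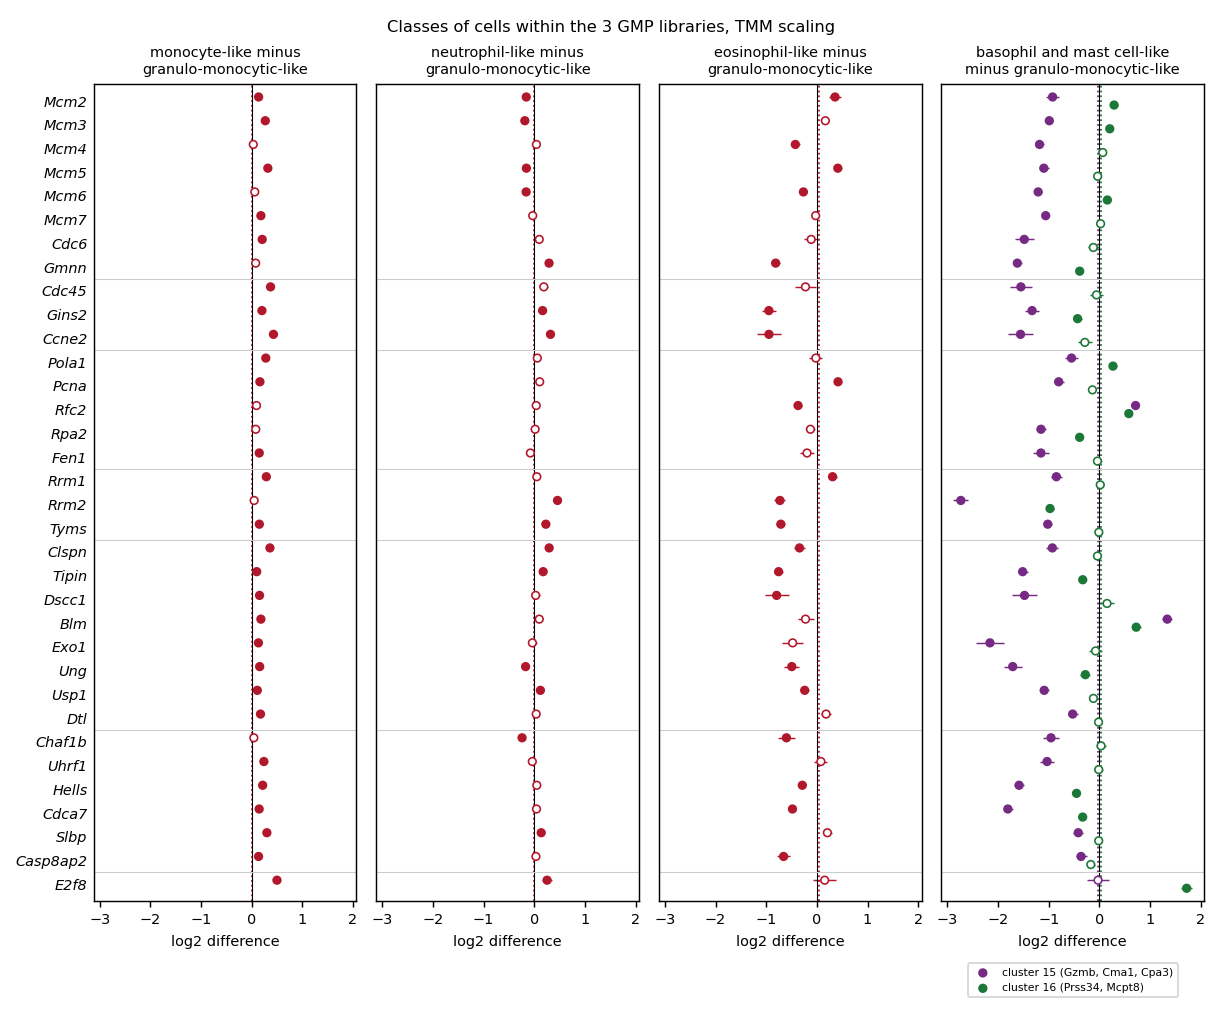
Log2 differences with TMM scaling of the 34 genes within GMP for monocyte-like, neutrophil-like, eosinophil-like and clusters 15 and 16 of basophil and mast cell-like cells, each minus granulo-monocytic-like cells, with SEs as bars and filled points for an edgeR adjusted p below 0.05. All 34 lie above the median of all genes in monocyte-like cells, where the largest is 0.50 for E2f8, while Rrm2 falls to -2.74 in cluster 15 and E2f8 reaches 1.72 in cluster 16.

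As a summary per cell, at least 10 members were detected after thinning to 5000 UMIs in 69.6% ± 4.79 of monocyte-like, 54.4% ± 7.44 of neutrophil-like, 48.4% ± 3.24 of basophil and mast cell-like and 57.8% ± 5.15 of granulo-monocytic-like GMP cells (SD, n = 3). Eosinophil-like cells reached 65.6% in the 2 libraries with enough cells of that depth. When classes were named on one part of each cell's UMIs and tested on the other part, 22 members were higher and none lower in monocyte-like cells, where 40.0% of genes were called, 20.1% higher and 19.9% lower. In that form 3 were higher and 24 lower in basophil and mast cell-like cells (54.8% of genes called, 28.8% higher and 26.0% lower), 4 higher and 13 lower in eosinophil-like cells (30.4%, 14.3% and 16.1%), and 5 higher and 3 lower in neutrophil-like cells (17.7%, 11.8% and 5.95%). The order of classes by the share of cells with at least 10 members depended on the thinning. At 2000 UMIs eosinophil-like cells were at 8.22%, monocyte-like at 7.96%, basophil and mast cell-like at 4.75%, neutrophil-like at 2.90% and granulo-monocytic-like at 3.57%. The thinning to 5000 UMIs left out 276, 261 and 144 of the basophil and mast cell-like cells of replicates 1, 2 and 3.

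The basophil and mast cell-like class was the 1 named class with at least 100 cells in each GMP library and in CMP, where it held 148 cells, so GMP and CMP were compared within it. Hells had 87.3, 86.6 and 99.3 CPM in GMP cells of the class, against 36.1 CPM in CMP cells, a log2 difference of 1.37 (SE 0.27, edgeR adjusted p = 0.00156). E2f8 had 28.7, 38.2 and 31.7 CPM in GMP cells, against 10.7 CPM in CMP cells (13 UMIs), a log2 difference of 1.67 (SE 0.39, edgeR adjusted p = 0.00826). Uhrf1, which brings the maintenance DNA methyltransferase to replicated DNA, had 36.6, 41.6 and 50.2 CPM, against 17.2 CPM, a log2 difference of 1.34 (SE 0.34, edgeR adjusted p = 0.0149). Mcm4 (0.93) and Mcm7 (0.81) were also higher, so that 5 of 34 members rose and none fell, where 3.62% of 10903 genes were called, 2.05% higher and 1.57% lower. With total UMIs 4 rose and none fell, where 2.41% of genes were called, 1.23% higher and 1.18% lower. The members' median was 0.78 and that of all genes 0.01, and 33 of 34 lay above the median of all genes.

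The mix of clusters 15 and 16 in this class differed between GMP and CMP. Of the 148 CMP cells 120 lay in cluster 15 and 28 in cluster 16, while in GMP cluster 16 held more cells than cluster 15 in replicates 1 and 2 and fewer in replicate 3. Within cluster 15 alone 3 of 31 members tested were higher in GMP than in CMP, Hells (2.42), Clspn (2.15) and Gmnn (1.14), and none was lower, where 2.54% of genes were called, with a median of 0.84. E2f8, Uhrf1, Mcm4 and Mcm7, called in the whole class, were not among them. In GMP, E2f8 was high in cluster 16 and not in cluster 15, as given above. The part of the cluster mix in the differences of the whole class was not tested. Median depth in cluster 15 was 3495 to 4291 UMIs in GMP, against 7431 UMIs in CMP, and its part in the result was not tested. The DESeq2 Wald test called 1 member in the whole class, where 1.1% of genes were called. Leaving out GMP replicate 1 gave 15 members called (7.57% of genes), leaving out replicate 2 gave 3 (2.33%) and leaving out replicate 3 gave 11 (4.62%).

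Cluster 5, unnamed and led by Cebpa, Mc5r and Ccl9, was the other group of cells large enough in all 4 libraries, with 653, 834 and 745 GMP cells and 219 CMP cells, and was added after the clusters were seen. No member was called in edgeR between GMP and CMP cells of cluster 5, where 1.43% of 13036 genes were, 0.736% higher and 0.698% lower, and DESeq2 called 0 as well. At an unadjusted p below 0.05, 4 of 34 members were lower in GMP, Mcm2 (-0.59), Chaf1b (-0.50), Mcm3 (-0.45) and Tipin (-0.31), against 12.1% of all genes. With total UMIs there was again no call among the members, where 1.5% of genes were called, 0.828% higher and 0.675% lower. The members' median was -0.09. A p that misses the threshold does not show that the levels were alike.

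Within the single CMP library, classes were set against the other named classes without a test. Megakaryocyte-like cells (495) had the most members higher, 10 at 1.5-fold or more with counting intervals apart and none lower, where 5.02% of genes were called higher and 9.91% lower. Ccne2 had 21.7 CPM in megakaryocyte-like cells, against 9.56 CPM in the other named classes, and Rrm2 61.7 CPM, against 31.7 CPM, folds of 2.27 and 1.95. At least 10 members were detected in 69.4% of thinned megakaryocyte-like cells (65.0 to 73.5), against 43.9% of erythroid-like and 42.7% of lymphoid-primed-like cells.

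Erythroid-like CMP cells (1450) had Blm at 73.5 CPM, against 39.3 CPM, and E2f8 at 21.5 CPM, against 11.98 CPM in the other named classes. Cdca7, Hells and Ccne2 were lower, at 0.64, 0.59 and 0.66 times the other classes, where 4.19% of genes were called higher and 11.9% lower. In lymphoid-primed-like cells (2223), whose leading genes were Cdkn1a, Nr4a1 and Socs3, Blm and E2f8 were lower, at 0.50 and 0.51 times, where 7.76% of genes were called higher and 4.42% lower. These leading genes are not among the markers of the class, and its name depended on the clustering. It covered 4017 CMP cells at Leiden resolution 0.5 and 2251 at resolution 2. With classes named on one part of the UMIs no class had this name. There 1995 CMP cells were stem and multipotent-like, against 28 in the main clustering. In basophil and mast cell-like CMP cells 27 members were lower and none higher, with a median fold of 0.519, where 4.71% were called higher and 5.42% lower. Blm and E2f8 were the 2 members called higher in erythroid-like cells and the 2 called lower in lymphoid-primed-like cells. These counts were near the shares of all genes called in the same direction, 4.19% and 4.42%. They come from the single CMP library without a test, so no pattern of the members is read from them. The erythroid-like and lymphoid-primed-like classes were each part of the reference of the other.

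Within LMPP, 914 cells formed cluster 14, which was led by Mki67, a proliferation marker left out of the clustering, and stayed unnamed. In cluster 14, 19 members were higher than in the named classes and none lower, where 5.43% of genes were called higher and 4.32% lower. E2f8 had 46.0 CPM in cluster 14, against 14.1 CPM in the named classes, a fold of 3.27, and Cdc45 (2.79), Rrm2 (2.67), Exo1 (2.29), a DNA end nuclease, Fen1 (2.27), which trims Okazaki fragments, and Rrm1 (2.27) followed. These cells were deep, with a median of 18767 UMIs, and at least 10 members were detected in 78.3% of them after thinning (75.4 to 81.0).

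Stem and multipotent-like cells made up most of LMPP (5787 cells), and 4 members were lower in them than in the other named classes, where 17.6% of genes were called higher and 5.58% lower. Rrm2 had 29.6 CPM in these cells, against 86.0 CPM, a fold of 0.34, and E2f8 (0.56), Blm (0.60) and Uhrf1 (0.64) were the other three. B cell-like LMPP cells (269) had 9 members higher, with Rrm2 at 2.55 times and Uhrf1 at 2.18 times the other classes, where 6.01% of genes were called higher. Neutrophil-like LMPP cells (156) had Rrm2 at 92.3 CPM, against 33.6 CPM, while 13 members were lower, among them Dtl (0.36) and Chaf1b (0.43), where 4.86% of genes were called higher and 32.7% lower. Rrm2 was thus higher in neutrophil-like cells in LMPP as in GMP, but against unlike references. The reference was mostly stem and multipotent-like cells in LMPP and granulo-monocytic-like cells in GMP. In LMPP, Rrm2 was also high in B cell-like cells (82.4 CPM) and in cluster 14 (96.2 CPM), so this was not particular to neutrophil-like cells.

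Other genes of the cycle give the frame for these values. Of 56 further replication genes 15 were higher and none lower in GMP than in CMP, where 13.6% of all genes were higher and 19% lower. Against LMPP 32 were higher and 4 lower, where 26% of all genes were higher and 31.6% lower. Their medians were 0.36 against CMP and 0.47 against LMPP. Rnaseh2c, a subunit of the enzyme that removes ribonucleotides from DNA, had 246, 255 and 244 CPM in GMP, 144 CPM in CMP and 123 CPM in LMPP, log2 differences of 1.09 and 1.63. With TMM scaling Gins1, another GINS subunit, was higher by 1.44 against LMPP, and Lig1, which joins Okazaki fragments, by 0.73. In CPM, Lig1 had 223, 219 and 202 in GMP, against 199 in LMPP. Scaled by total UMIs, 4 of these replication genes were higher and 4 lower against CMP, where 7.43% of all genes were higher and 30.4% lower. Against LMPP 6 were higher and 16 lower, where 11% of all genes were higher and 52.1% lower. The counts of higher genes were near these shares.

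Of 43 mitosis and G2M genes 14 were higher and 1 lower against CMP, where 13.6% of all genes were higher and 19% lower. Against LMPP 14 were higher and 6 lower, where 26% of all genes were higher and 31.6% lower. Birc5, survivin, was higher by 0.92 and Smc4, a condensin subunit, by 0.71 against CMP, while Psrc1 was lower (-0.97), and Cdca3 (1.33) and Ccnb1 (1.22) were higher against LMPP. With total UMIs the counts were 4 higher and 1 lower against CMP, where 7.43% of all genes were higher and 30.4% lower. Against LMPP they were 4 higher and 24 lower, near the shares of all genes, 11% higher and 52.1% lower. A further 14 genes of G1 control covered D cyclins, Cdk4, Cdk6, cell cycle inhibitors, Rb1, Rbl1, Rbl2 and E2f4. Of these none was higher and 6 were lower against CMP. Against LMPP 3 were higher, the kinases Cdk4 (0.81) and Cdk6 (1.24) among them, and 7 were lower. These counts and differences are with TMM scaling, and the shares of all genes are those given for the G2M genes with that scaling. In CPM, Cdk4 had 372, 387 and 380 in GMP, against 333 in LMPP. Cdk6 had 292, 386 and 415 CPM in GMP, against 235 CPM in LMPP. Cdkn1c, the p57 inhibitor found in quiescent stem cells, had 0.662, 0.544 and 0.51 CPM in GMP, 6.74 CPM in CMP and 15.3 CPM in LMPP, log2 differences of -3.26 and -4.12. Cdkn1a, the p21 inhibitor, had 39.7, 22.5 and 25.03 CPM in GMP, 192 CPM in CMP and 47.4 CPM in LMPP, log2 differences of -2.41 against CMP and -0.08 against LMPP (edgeR adjusted p = 0.829). Cdkn1c passed against both populations and Cdkn1a against CMP.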

How the data were processed

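The deposited matrices hold raw counts of UMIs per gene and barcode, per the file headers written by Cell Ranger 6.1.1. The submitters' processing notes name Cell Ranger 3.1.0, Seurat 3.1.1 and mm10, and how barcodes were kept was not given in the sources used here. Barcodes with under 500 genes, under 1000 UMIs or over 10% mitochondrial UMIs were dropped (77 to 387 per library), as were doublet calls at a rate of 0.8% per 1000 barcodes (432 to 783). The kept cells held 80115279 to 117660787 UMIs per library.

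UMIs were summed per library, or per library and class, and compared in edgeR 4.0.16 (R 4.3.3, with limma 3.58.1) by its quasi-likelihood test. TMM factors, filterByExpr and Benjamini-Hochberg adjustment over all genes tested were used, with calls at 0.05. The TMM factors were 0.852, 0.888 and 0.901 for GMP, 1.09 for CMP and 1.35 for LMPP, so TMM-scaled differences lie above the ratios of CPM. All 3 populations shared 1 fit. Within GMP the library was a block, because classes of a library come from the same cells' suspension. Single libraries carry exact Poisson intervals of counts and Clopper-Pearson intervals of shares at 95%, which cover counting error only. The tests were checked on simulated data, for GMP against CMP and for monocyte-like against granulo-monocytic-like cells. The simulated spread was set near that of the fits and alike in all libraries. This check therefore cannot show whether CMP and LMPP vary like GMP.

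Cells were scaled to 10000 UMIs and grouped on 2000 variable genes, with 30 principal components, 20 neighbours and Leiden resolution 1 (leidenalg 0.10.2, scikit-learn 1.9.0, Python 3.11.15). All listed cell cycle genes were left out of the clustering. A class name needed at least 3 of its markers raised 1.5-fold at 20 CPM or more. Further conditions, on markers among the 10 leading genes and on rival names, were set once clusters had been seen. The design named the granulo-monocytic-like class for GMP against CMP, but CMP held 2 such cells, so the basophil and mast cell-like class, which also met the minimum of 100 cells, was used.

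The text names, for each comparison, up to 6 members with the largest difference each way that passed and did not overlap in CPM, any member against the majority, and up to 4 of highest level that did not pass. From other lists it names up to 4 genes. The members and lists were chosen with earlier results of these data known. Alternatives were scaling by total UMIs, DESeq2 1.42.0 size factors and Wald test, no low-count filter, doublets kept, all deposited barcodes, libraries thinned to the smallest total, only the groups compared, cell cycle genes kept in the clustering, each GMP replicate left out, Leiden resolutions 0.5 and 2, no library block, and classes named on one part of each cell's UMIs with tests on the other.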

Additional observations from a re-analysis of the deposited data

How the results depend on the processing

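Scaling by total UMIs changed several calls. Against LMPP it gave 10 calls (3 higher, 7 lower) for 21, where 63.2% of all genes were called for 57.6%, and Rrm1 turned to -0.47. Against granulo-monocytic-like cells it gave 19 calls (14 higher, 5 lower) in eosinophil-like cells, with 46.2% of genes called, Mcm7 at 0.42 and Rpa2 at 0.32. In neutrophil-like cells it gave 20 (2 higher, 18 lower), with 37.9% of genes called, Rfc2 at -0.14, Cdca7 at -0.13 and Hells at -0.12. In basophil and mast cell-like cells it gave 17, with 60.2% of genes called and Mcm2 at 0.19. Leaving out 1 GMP replicate gave 7 to 15 calls against CMP (26.2% to 43.3% of all genes called) and 16 to 23 against LMPP (50.6% to 65.6%). It gave 19 to 29 in monocyte-like (32.9% to 35.6%) and 27 to 29 in basophil and mast cell-like cells (50.5% to 53.7%). Eosinophil-like cells gave 18 to 19 (29.1% to 32.8%) and neutrophil-like cells 8 to 10 (17.5% to 18.9%). Between GMP and CMP it gave 3 to 15 within the basophil and mast cell-like class (2.33% to 7.57%) and 0 to 0 in cluster 5 (0% to 2.51%). Against CMP, scaling by total UMIs gave 8 calls (37.8% of all genes called) and the other alternatives 9 to 11 (22.2% to 34.1%).

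Without the library block, calls fell to 3 in monocyte-like (12.6% of all genes called) and 1 in neutrophil-like cells (2.47%). In basophil and mast cell-like cells 22 were made (45.3%). No paired analysis was possible because, between populations, only GMP has numbered replicates. Neutrophil-like cells gave 10 calls at Leiden resolution 2 (17.8% of genes called) and 8 with classes named on one part of the UMIs (17.7%). Within the basophil and mast cell-like class, GMP against CMP gave 1 call with the DESeq2 Wald test (1.1% of genes called). It gave 9 with no low-count filter (2.32%), 3 at Leiden resolution 2 (3.33%) and 3 in cluster 15 alone (2.54%). Cluster 5 gave 1 with no filter (2.43%). In the class against granulo-monocytic-like cells, cluster 16 alone gave 15 calls (43.3% of genes called), with Mcm2 at 0.29. Cluster 15 alone put E2f8 at -0.028 and Pola1 at -0.55. The share of cells with at least 10 members was 6.17%, 8.32% and 9.01% in GMP, CMP and LMPP at 2000 UMIs and 89.4%, 64.5% and 61.6% unthinned. The cause of these shifts was not tested. The number of cells limits the CMP class, whose 148 cells held 13 UMIs of E2f8 and 5 of Ccne2.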
